A study of Mus musculus with 6 samples.

Results

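The genes described here are 33 metabolic enzymes, peptidases and regulators of the kidney proximal tubule, measured in 6 libraries of CD31-sorted kidney cells. They were taken by gene symbol from a table of 55487 genes. Each symbol matched 1 row, so all 33 were found. The list was drawn up with earlier results of these libraries known, among them the difference between I-PpoI and control mice. Values that compare those groups are therefore given as a description of these mice and support no claim about the list.

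The control group was 3 wild-type littermates. The I-PpoI group was 3 mice labelled VE-cadherin Cre with a Cre-dependent I-PpoI allele, written as ROSA26-STOP-I-PpoI, ROSA27-STOP-I-PpoI and ROSA28-STOP-I-PpoI in mice 1, 2 and 3. I-PpoI, a homing endonuclease, cuts DNA at a fixed recognition sequence, and VE-cadherin is an adhesion protein of endothelium, whose promoter drives the Cre. All 6 mice started a high-fat diet (60% of kcal as fat) when 8 weeks old and stayed on it for 4 weeks, and the labels put all libraries in batch 1. Kidneys were digested with collagenase and cells were taken with magnetic beads against CD31.

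The proximal tubule is the first segment of the nephron after the glomerulus. It takes back most filtered solute, makes glucose from lactate and amino acids, completes the synthesis of active vitamin D, breaks down peptides and glutathione at its brush border, and conjugates foreign compounds. Many of its enzyme genes are targets of the nuclear receptor HNF4A, and part of them differ in level between male and female mice and respond to androgen. Most of these genes are not known as genes of endothelial cells. In such a bulk library, more tubule cells and more tubule RNA per cell cannot be told apart.

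The unit is FPKM, fragments per kilobase of exon, scaled to the library's counted fragments, so levels can be compared between genes. Multiplying FPKM by exon length gave back whole fragments, 13324303 to 16954480 per library in the controls and I-PpoI mouse 3, but only 1590957 and 834149 in I-PpoI mice 1 and 2. A member rested on a median of 326 to 523 fragments in the controls and 953 in I-PpoI mouse 3, against 18 and 34 in I-PpoI mice 1 and 2. These last 2 libraries also differed in strand. Over 1727 coding genes and the 1676 antisense models that share exon bases with them, the antisense models held 1.98 to 2.14% of the fragments in the controls and I-PpoI mouse 3, but 66.7% and 69.0% in I-PpoI mice 1 and 2. Every member's FPKM in I-PpoI mice 1 and 2 may therefore count the strand opposite to the one counted in the other 4 libraries, also for members with no annotated gene on that strand, where the files allow no such check. Mitochondrial genes took 8.83 to 18.3% of fragments in the controls and 6.42%, 38.2% and 48.2% in I-PpoI mice 1, 2 and 3. Y-linked Ddx3y counted 959 to 1672 fragments in each control library, 20 for I-PpoI mouse 1 and 0 for both other I-PpoI mice. Xist, which females express, counted 0 to 4 fragments in those first 4 libraries, 70 for I-PpoI mouse 2 and 4739 for I-PpoI mouse 3. Sex-linked transcripts thus differed within the I-PpoI group. These are counts not scaled for depth, and those of I-PpoI mice 1 and 2 may likewise count the opposite strand. The part of depth, strand, mitochondrial share and sex in any result below was not tested.

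**Figure D1:**
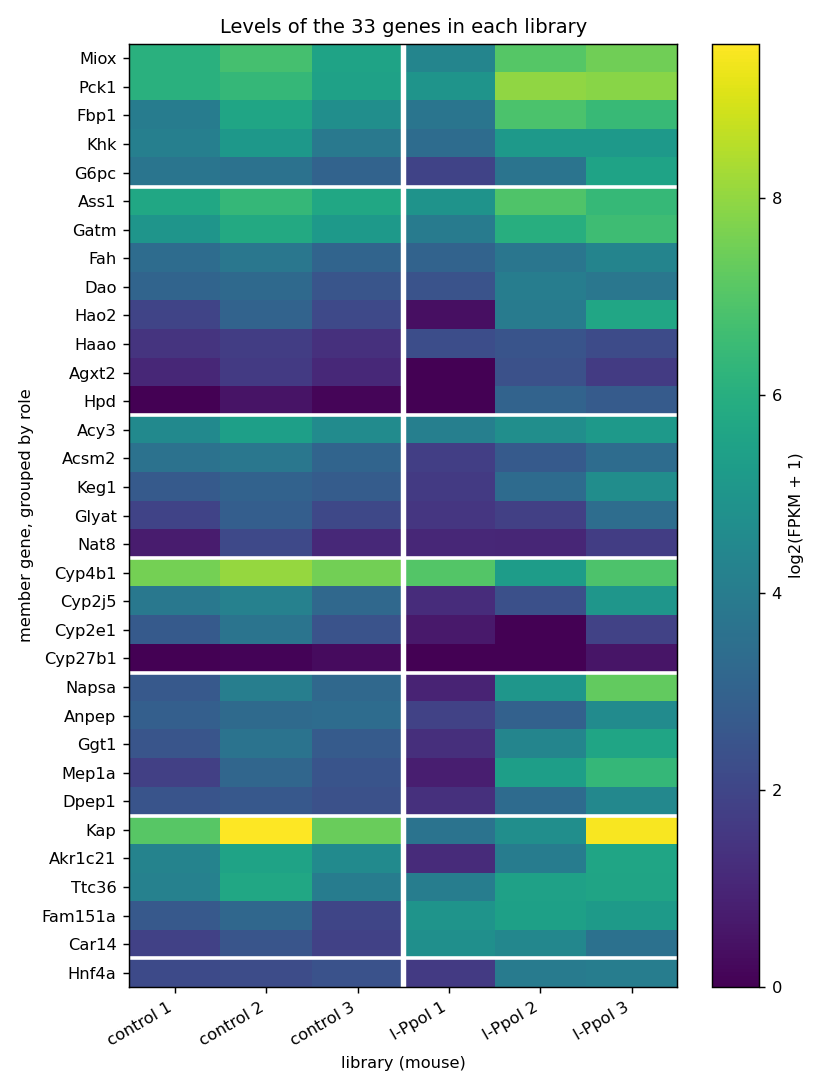
Levels of the 33 genes (rows, grouped by role) in the 6 libraries (columns), as log2(FPKM + 1) on the colour scale. Kap and Cyp4b1 were the brightest rows in the controls, and I-PpoI mouse 1 was the darkest column for most genes.

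The sorted control cells already held these transcripts. Over the 33 genes the median control mean was 8.26 FPKM, 14 genes were above 10 FPKM and 2 were above 100 FPKM, Kap and Cyp4b1. Kap, a small secreted kidney protein under androgen control, was at 134, 755 and 165 FPKM in control mice 1, 2 and 3. Cyp4b1, a fatty acid and xenobiotic hydroxylase, was at 189, 266 and 182 FPKM. At the other end, Hpd and Cyp27b1 had control means under 1 FPKM. Together the 33 genes took 0.159% of fragments in control mouse 1 (95% exact Clopper-Pearson interval 0.157 to 0.161%), 0.284% in control mouse 2 (0.281 to 0.287%) and 0.148% in control mouse 3 (0.147 to 0.150%).

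The controls differed among themselves in a shared direction. Control mouse 2 was the highest control for 29 of the 32 members with a mean of at least 1 FPKM, against 37.1% of all 14962 genes with that mean. Its median ratio to the mean of control mice 1 and 3 was 1.84 over those members and 0.968 over all those genes, and it exceeded 2 for 13 members. The ratio was 9.64 for Hpd, which rested on few fragments, 5.06 for Kap, 3.69 for Nat8 and 3.18 for Ttc36. Hnf4a (0.961), Anpep (1.14), G6pc (1.15) and Dpep1 (1.17) were nearly level. The 15 proximal tubule transporters and receptors listed as markers had a median ratio of 1.53, with control mouse 2 highest for 10 of them. The SD of the 3 controls was 10.05% to 131% of the mean over the tested members.

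The 3 I-PpoI libraries did not share a direction over the members. In I-PpoI mouse 1, 26 of 32 members lay below every control and 3 above, where 57.2% of all genes lay below and 28.7% above. In I-PpoI mouse 2, 19 lay above every control and 7 below, where the shares of all genes were 25.6% above and 64.7% below. In I-PpoI mouse 3, 25 lay above and 2 below, where the shares were 6.17% above and 70.7% below. The median ratio to the control mean was 0.355, 1.72 and 2.40 in I-PpoI mice 1, 2 and 3 over the members, and 0.609, 0.409 and 0.584 over all genes. As a share of fragments, the members took 0.0894% (0.0848 to 0.0941%), 0.288% (0.276 to 0.299%) and 0.458% (0.454 to 0.461%) in the 3 mice. These intervals cover counting error only. Leaving mitochondrial fragments out of the total, the share was 0.174%, 0.335% and 0.182% in the controls and 0.0955%, 0.466% and 0.884% in the I-PpoI mice.

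**Figure D2:**
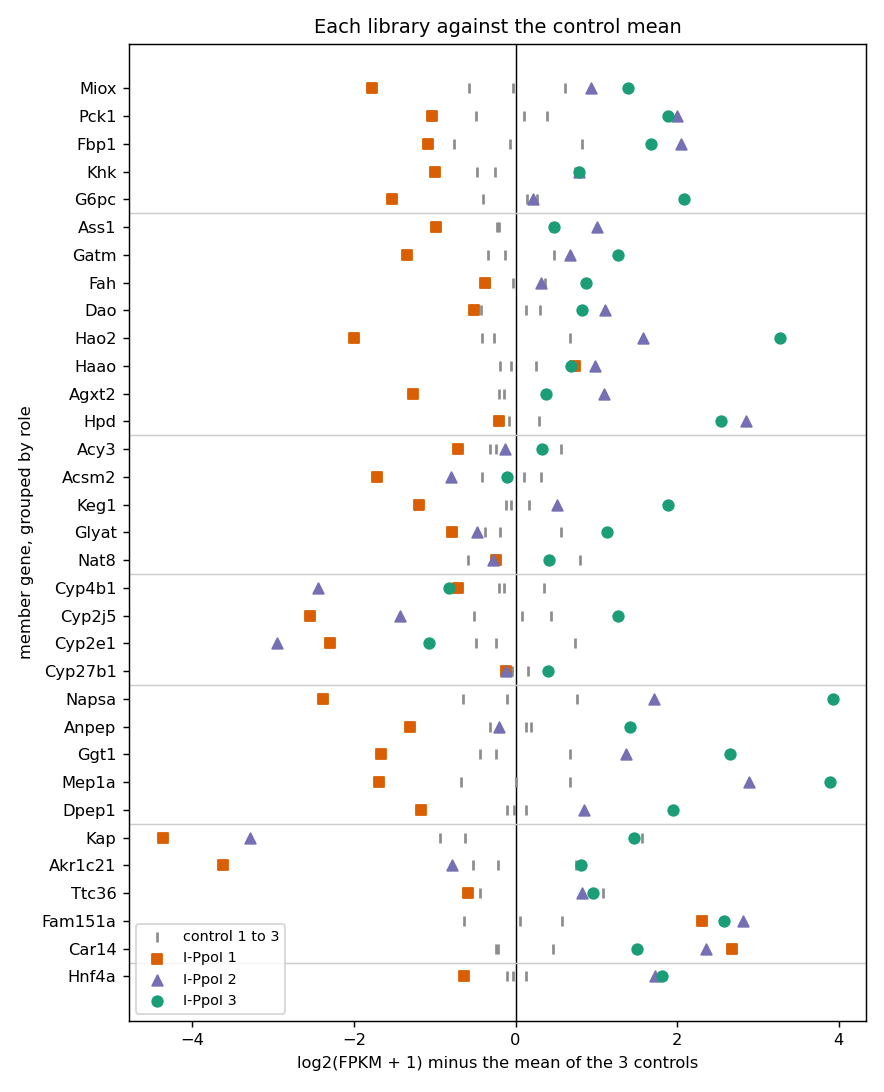
Difference of each library from the mean of the 3 controls on the log2(FPKM + 1) scale (horizontal axis) for each of the 33 genes (vertical axis, grouped by role). Grey ticks are the 3 controls, squares, triangles and circles I-PpoI mice 1, 2 and 3. Squares of I-PpoI mouse 1 lie left of the controls for most genes and circles of I-PpoI mouse 3 lie right of them, while Haao, Car14 and Fam151a have all 3 I-PpoI points to the right and Cyp2e1 and Cyp4b1 have all 3 to the left.

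With limma on log2(FPKM + 1) over 14962 genes, 0 of 32 members passed an adjusted p of 0.05, beside 0% of all genes. At an unadjusted p under 0.05 there were 3 members higher and 2 lower, where 4.23% of all genes were higher and 32.2% lower. Limma-voom on recovered fragments also passed 0 members and 0 genes, with 8 members higher at an unadjusted p under 0.05 (2.5% of all genes) and 0 lower (1.04%). The median log2 difference was 0.26 over the members and -0.65 over all genes with limma on FPKM, and 1.39 and 0.04 with limma-voom. With limma-voom 30 of 32 members were above 0, beside 7965 of 14945 genes. With each library scaled by its median of ratios it was 1.01 over the members and -0.01 over all genes, and 3 members were higher and 1 lower at an unadjusted p under 0.05 (5.29% and 3.25% of all genes). Among the 4428 tested genes with no opposite-strand gene nearby, scaled alike, 3 of 17 members were higher and 0 lower (3.5% and 5.62% of those genes), with a median of 1.25 over those members. On the scaled values I-PpoI mouse 1 had 3 members above every control and 19 below (41.5% and 40% of all genes), I-PpoI mouse 2 had 24 and 3 (41.2% and 42.9%), and I-PpoI mouse 3 had 30 and 1 (21.2% and 27.5%).

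The libraries that stand apart decided these counts. With I-PpoI mice 1 and 2 left out, 1 I-PpoI library remained and was taken to vary as the control group did. The median log2 difference was then 1.33 over the members and -0.54 over all genes. Of the members 29 of 32 were above 0, beside 1642 of 14962 genes. Without I-PpoI mouse 3, which leaves the 2 shallow libraries, limma passed 3 members higher and 5 lower (19.8% and 36.6% of all genes). The higher ones were Haao, Car14 and Fam151a and the lower ones Kap, Cyp2e1, Cyp4b1, Cyp2j5 and Acsm2.

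The 5 genes of glucose, fructose and inositol metabolism were below every control in I-PpoI mouse 1 and above every control in I-PpoI mouse 3. Pck1, the cytosolic phosphoenolpyruvate carboxykinase that commits carbon to gluconeogenesis (ENSMUSG00000027513, GRCm38 chromosome 2, 173153048 to 173159273), measured 66.3, 81.3 and 43.8 FPKM in control mice against 29.6, 249.6 and 231 FPKM in I-PpoI mice. Fbp1, fructose-1,6-bisphosphatase of the same pathway (chromosome 13, 62864753 to 62888282), was at 15.3, 47.9 and 25.4 against 12.1, 114 and 87.1 FPKM. G6pc, which releases free glucose (chromosome 11, 101367561 to 101377903), was at 12.2, 11.2 and 7.33 against 2.84, 11.9 and 45.6 FPKM. I-PpoI mouse 2 was above the controls for Pck1 and Fbp1 and within their range for G6pc. Miox, which opens the inositol ring and is nearly restricted to this tubule segment, was at 66.5, 105 and 45.3 against 19.3, 131 and 181 FPKM. Khk, the fructokinase that lets the tubule burn fructose, was at 16.3, 33.3 and 13.8 against 9.37, 34.5 and 34.5 FPKM. Log2 differences between the groups ran from 0.18 (SE 0.87) for Miox to 0.95 (SE 0.85) for Pck1, each with overlapping groups.

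The 8 genes grouped as amino acid enzymes, the hydroxy acid oxidase Hao2 among them, were all above every control in I-PpoI mouse 3, as were 6.17% of all genes. In I-PpoI mouse 2 this held for 7 of them and for 25.6% of all genes. Hpd is in both counts and in those over the whole list. It reached the tested mean only through these mice, so its place above the controls was nearly fixed by the filter. Hao2, a peroxisomal hydroxy acid oxidase (chromosome 3, 98874521 to 98893239), differed widely between I-PpoI mice, with 2.90, 7.32 and 3.34 FPKM in the controls against 0.304, 14.6 and 49.0 FPKM, the latter on 1, 25 and 1339 fragments. Hpd, the second enzyme of tyrosine breakdown, was almost silent in the controls, at 0, 0.401 and 0.0832 FPKM (0, 12 and 3 fragments). In the I-PpoI mice it was at 0, 7.29 and 5.71 FPKM (0, 13 and 162 fragments), and the count of 0 in I-PpoI mouse 1 allows up to 0.886 FPKM, which is above every control. Fah, the last enzyme of the same route, was at 9.54, 12.9 and 7.55 against 7.31, 12.4 and 18.6 FPKM.

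Ass1, the argininosuccinate synthase that lets the kidney make arginine from citrulline, was at 51.2, 81.0 and 50.5 against 29.4, 120.1 and 82.8 FPKM. Gatm, which makes the precursor of creatine, was at 30.5, 54.7 and 35.5 against 14.8, 62.8 and 95.02 FPKM. Dao, the D-amino acid oxidase, was at 7.48, 8.59 and 4.78 against 4.44, 15.8 and 12.7 FPKM. All 3 again had I-PpoI mouse 1 below the controls and I-PpoI mice 2 and 3 above them. Agxt2, an aminotransferase of the mitochondrion that clears dimethylarginines, was at 1.10, 2.07 and 1.17 against 0, 4.15 and 2.13 FPKM. Its 0 in I-PpoI mouse 1 allows up to 0.596 FPKM, still under the lowest control.

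Haao, the dioxygenase of the kynurenine pathway to NAD (ENSMUSG00000000673, chromosome 17, 83831156 to 83847963), was the exception in I-PpoI mouse 1. It measured 1.72, 2.37 and 1.49 FPKM in control mice against 3.73, 4.59 and 3.54 FPKM in I-PpoI mice, on 28, 18 and 221 fragments. The means were 1.86 ± 0.457 and 3.95 ± 0.558 FPKM (SD, n = 3 each). The groups did not overlap, the ratios to the control mean were 2.01, 2.47 and 1.91, and the log2 difference was 0.80 (SE 0.30). Groups without overlap and higher I-PpoI values were 3 of 32 members and 2.24% of all genes (7.24% after scaling by median of ratios, with the same 3 members), and the other 2 members were Fam151a and Car14. Haao has no annotated gene on the opposite strand within 5 kb. Which strand its 28 and 18 fragments in I-PpoI mice 1 and 2 came from could therefore not be checked.

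Fam151a, a predicted membrane protein (ENSMUSG00000034871, chromosome 4, 106733889 to 106748292), measured 5.41, 8.17 and 2.95 FPKM in control mice against 29.5, 42.2 and 35.7 FPKM in I-PpoI mice. The means were 5.51 ± 2.61 and 35.8 ± 6.35 FPKM (SD, n = 3 each), and the log2 difference was 2.57 (SE 0.40). Exons of Acot11 on the opposite strand overlap 65.7% of its exon length. Acot11, an acyl-CoA thioesterase gene, was at 1.38, 1.21 and 1.37 FPKM in the controls, against 9.16, 76.9 and 1.55 FPKM in the order of the I-PpoI mice. In I-PpoI mouse 3, where Acot11 was near the controls, Fam151a rested on 916 fragments and was 6.49-fold the control mean. Car14, a membrane carbonic anhydrase (chromosome 3, 95897768 to 95904691), was at 2.58, 4.81 and 2.62 against 25.99, 20.7 and 10.9 FPKM, a log2 difference of 2.18 (SE 0.43). The 445 bases at its 3′ end overlap an exon of Aph1a on the opposite strand, which was at 20.1 to 29.5 FPKM in control libraries against 11.7, 32.2 and 11.9 FPKM in I-PpoI mice. The groups of Car14 and Fam151a did not overlap on their own FPKM, and the sums with the opposite-strand gene are given with the strand pairs further on.

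The 5 brush border and lysosomal peptidases were all above every control in I-PpoI mouse 3, with a median ratio to the control mean of 6.59. Mep1a, the alpha subunit of meprin (ENSMUSG00000023914, chromosome 17, 43474324 to 43502812), measured 2.47, 7.84 and 4.55 FPKM in control mice against 0.722, 40.1 and 81.3 FPKM in I-PpoI mice, 16.4-fold the control mean in mouse 3. Napsa, the aspartic protease napsin A (chromosome 7, 44572380 to 44586862), was at 5.42, 16.0 and 8.32 against 0.938, 31.9 and 152 FPKM, 15.3-fold in mouse 3. Ggt1, which starts the breakdown of glutathione outside the cell, was at 4.79, 11.5 and 5.64 against 1.46, 19.2 and 48.1 FPKM. On their own FPKM these 3 genes had the same order of mice, with I-PpoI mouse 1 under the lowest control and the others above the highest. The order differed for Napsa when its antisense model was added, as given with the strand pairs further on. Dpep1, the dipeptidase that follows it, was at 4.56, 5.15 and 4.22 against 1.505, 9.12 and 20.8 FPKM. Anpep, aminopeptidase N, was at 6.38, 8.99 and 9.42 against 2.71, 6.93 and 23.4 FPKM. Anpep is not restricted to the tubule, and in I-PpoI mouse 2 it stayed within the control range.

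The 5 genes grouped under acyl-CoA conjugation and acetylation, with the deacetylating Acy3 among them, had a median ratio to the control mean of 1.36 in I-PpoI mouse 3. Keg1, a glycine acyltransferase relative (chromosome 19, 12695786 to 12719902), measured 5.53, 6.94 and 5.80 FPKM in control mice against 2.09, 9.06 and 25.1 FPKM in I-PpoI mice. Its neighbour Glyat, the glycine acyltransferase that makes hippurate, was at 2.77, 6.23 and 3.26 against 1.83, 2.497 and 9.70 FPKM. Acy3, which removes acetyl groups from mercapturates, was at 22.0, 41.5 and 23.2 against 16.5, 25.1 and 35.0 FPKM. Of these, Keg1 and Glyat exceeded every control in I-PpoI mouse 3 and Acy3 did not. Acsm2, a medium-chain acyl-CoA synthetase of the mitochondrion, was at 11.1, 13.01 and 7.44 against 2.44, 5.47 and 9.48 FPKM. Nat8, an acetyltransferase that forms mercapturates, was at 0.661, 3.35 and 1.16 against 1.11, 1.06 and 2.34 FPKM and rested on 2 and 1 fragments in I-PpoI mice 1 and 2. Acsm2 was thus the only member of this group below its control mean in all 3 I-PpoI mice, with overlapping groups. Glyat and Keg1, and likewise Acsm2, Nat8, Akr1c21 and the cytochrome P450 genes, have close relatives, and how the authors' counting shared reads among relatives is not given in the sources used here.

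Of the 3 tested cytochrome P450 genes, all were below every control in I-PpoI mice 1 and 2 and 2 were in mouse 3, where 57.2%, 64.7% and 70.7% of all genes were. Cyp2e1, which oxidises ethanol, acetone and fatty acids (ENSMUSG00000025479, chromosome 7, 140763739 to 140774987), measured 5.54, 11.9 and 4.51 FPKM in control mice against 0.578, 0 and 2.68 FPKM in I-PpoI mice, on 2, 0 and 77 fragments. The means were 7.32 ± 4.01 and 1.09 ± 1.41 FPKM (SD, n = 3 each), and the 0 in I-PpoI mouse 2 allows up to 1.67 FPKM. Cyp4b1 (chromosome 4, 115624725 to 115647723) was at 189, 266 and 182 against 127, 37.6 and 118 FPKM, on 459, 71 and 3533 fragments. The groups of these 2 genes did not overlap, with log2 differences of -2.11 (SE 0.59) and -1.33 (SE 0.54), and 45.1% of all genes were lower without overlap. Scaled by median of ratios, Cyp2e1 still did not overlap and Cyp4b1 did, beside 10.7% of all genes. Cyp2j5, an arachidonic acid epoxygenase, was at 13.4, 17.4 and 8.50 against 1.33, 4.07 and 31.9 FPKM, so that I-PpoI mouse 3 lay above the controls and the other I-PpoI mice below them. Cyp27b1, the vitamin D 1-alpha-hydroxylase, had a mean under 1 FPKM and was not tested, with 0, 2 and 9 fragments in the controls and 0, 0 and 15 in the I-PpoI mice. Its counts of 0 in I-PpoI mice 1 and 2 allow up to 0.733 and 1.40 FPKM, more than any control, and I-PpoI mouse 3, at 0.437 FPKM, was above the highest control, at 0.206 FPKM.

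Of the remaining products, Kap (chromosome 6, 133849851 to 133853762) stood in the controls as given above. I-PpoI mice 1 and 2 had 11.5 and 25.3 FPKM, on 13 and 15 fragments, and mouse 3 had 710.4 FPKM, on 6693 fragments. I-PpoI mouse 3 thus lay between control mouse 2 (755 FPKM) and the other controls. Akr1c21, a hydroxysteroid dehydrogenase, was at 18.2, 45.5 and 22.7 against 1.25, 15.1 and 47.6 FPKM. Ttc36, a small tetratricopeptide repeat protein, was at 17.3, 51.5 and 15.0 against 15.6, 42.9 and 47.3 FPKM and lay within the control range in each I-PpoI mouse.

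Hnf4a, the nuclear receptor that drives much of this programme (ENSMUSG00000017950, chromosome 2, 163506808 to 163572910), had controls without an excess in mouse 2, at 3.44, 3.69 and 4.25 FPKM. The I-PpoI mice were at 2.07, 14.8 and 15.8 FPKM, on 16, 60 and 1014 fragments. I-PpoI mice 2 and 3 were 3.91-fold and 4.15-fold the control mean and mouse 1 was 0.545-fold. On their own FPKM, Hnf4a and Pck1 took nearly equal levels in I-PpoI mice 2 and 3. Napsa, Hao2 and Mep1a were higher in mouse 3 on that measure. The antisense model that shares exon bases with Napsa held 92.5% of the pair's fragments in I-PpoI mouse 2 and 0.719% in mouse 3. With both models added, the Napsa pair was higher in I-PpoI mouse 2, as given with the strand pairs further on. Hnf4a, Pck1, Hao2 and Mep1a have no annotated gene on the opposite strand within 5 kb. Their strand in I-PpoI mouse 2 could not be checked.

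Promoters were read from the RefSeq table (GRCm38.p6), which holds 40 windows for 31 of the 33 genes. The 250 bases before each start were searched on both strands for CAAAGTCCA, an element preferred by HNF4, and for the TATA box TATAAA. The HNF4 element was in 2 of 40 member windows, both of them overlapping windows of Agxt2, and in 0.384% of 32851 windows of all genes. The TATA box was in 10 of 40 member windows (25%), of 9 genes, and in 12.4% of all windows. On the gene strand it lay 28 to 40 bases before the start in Acsm2, G6pc, Acy3, Kap, Cyp2e1 and Miox. No matches of different motifs overlapped. A match is a description of letters and not evidence of binding. The sequences below show the promoter with the HNF4 element and those of Kap and Cyp2e1, which hold a TATA box and were low in I-PpoI mice 1 and 2. The last is the promoter of Mep1a, which holds neither motif. Mep1a had the largest ratio among tested members with controls above 1 FPKM in I-PpoI mouse 3. These are examples, and whether levels go with a motif was not tested. Starts are those of RefSeq, and GENCODE models of Kap, Cyp2e1 and Mep1a begin inside the window. Each is written 5′ to 3′ on the gene strand, and capitals mark motif matches.
Agxt2 promoter, chr15:10358283-10358532 (+ strand): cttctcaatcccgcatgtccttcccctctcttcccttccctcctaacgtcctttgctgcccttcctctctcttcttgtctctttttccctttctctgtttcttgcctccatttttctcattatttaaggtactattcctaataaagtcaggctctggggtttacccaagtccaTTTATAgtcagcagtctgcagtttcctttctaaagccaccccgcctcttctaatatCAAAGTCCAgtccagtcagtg
Kap promoter, chr6:133853668-133853917 (- strand): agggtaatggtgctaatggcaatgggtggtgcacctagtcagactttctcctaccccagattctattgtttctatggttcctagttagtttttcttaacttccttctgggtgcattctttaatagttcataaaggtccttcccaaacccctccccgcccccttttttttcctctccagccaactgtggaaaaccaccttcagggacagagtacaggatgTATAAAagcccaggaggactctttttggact
Cyp2e1 promoter, chr7:140763569-140763818 (+ strand): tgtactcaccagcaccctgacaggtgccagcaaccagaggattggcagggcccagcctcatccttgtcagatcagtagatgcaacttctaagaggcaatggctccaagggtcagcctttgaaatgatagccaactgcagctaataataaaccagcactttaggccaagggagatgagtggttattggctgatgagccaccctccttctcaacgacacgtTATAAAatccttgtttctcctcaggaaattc
Mep1a promoter, chr17:43502774-43503023 (- strand): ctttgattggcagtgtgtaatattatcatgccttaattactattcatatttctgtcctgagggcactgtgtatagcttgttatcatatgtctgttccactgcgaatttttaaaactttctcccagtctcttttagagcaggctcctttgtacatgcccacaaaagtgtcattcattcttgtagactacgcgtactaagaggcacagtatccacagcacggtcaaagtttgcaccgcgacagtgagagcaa

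Of the 5 members that share exon bases with a gene on the opposite strand, 3 have an antisense model as partner and 2 a coding gene. Napsa, Keg1 and Ttc36 each share exon bases with an antisense gene model, Gm15396, Gm15962 and Gm48702, over 502, 491 and 437 bases. In the controls and I-PpoI mouse 3 these models held 0 to 1.57% of the fragments of the Napsa pair, 0 to 0.358% of the Keg1 pair and 8.24 to 9.19% of the Ttc36 pair. In I-PpoI mouse 1 they held 87.9% (95% exact interval 71.8 to 96.6%), 93.9% (90.6 to 96.3%) and 91.1% (86.9 to 94.2%), and in I-PpoI mouse 2 92.5% (90.6 to 94.1%), 90.7% (87.7 to 93.2%) and 94.1% (91.8 to 95.9%). The member's FPKM in I-PpoI mice 1 and 2 thus counts the smaller part of the fragments at each of these loci. Gm15396 alone was at 957 FPKM in I-PpoI mouse 2, beside 31.9 FPKM for Napsa. With coding partners the shares had another order. Aph1a held 89.3 to 92.6% of the Car14 pair in the controls and 38.0%, 67.9% and 59.6% in I-PpoI mice 1, 2 and 3, so that I-PpoI mouse 3 differed from the controls as well. Acot11 held 31.8 to 59.5% of the Fam151a pair in the controls and 49.4%, 85.2% and 12.0% in the I-PpoI mice.

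**Figure D3:**
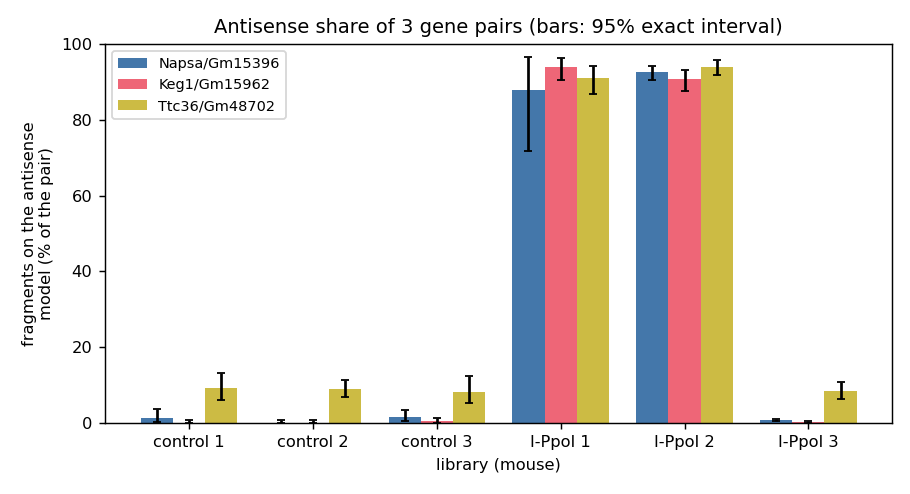
Share of fragments on the antisense model (vertical axis, percent of the sum of the pair) for 3 member and antisense model pairs in each library (horizontal axis), with 95% exact intervals as error bars. The share was under 10% in the controls and I-PpoI mouse 3 and between 87.9 and 94.1% in I-PpoI mice 1 and 2.

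Adding both models of a pair moved I-PpoI mouse 1 against the controls. As a rate per 1000000 counted fragments of the library, the Napsa pair had 14.6, 42.6 and 22.5 in the controls and 20.7, 1132 and 407 in the I-PpoI mice. The Keg1 pair had 31.3, 39.3 and 32.97 against 195, 554 and 142, and the Ttc36 pair had 17.5, 51.8 and 15.0 against 162, 665 and 47.4. So on pairs, I-PpoI mouse 1 was no longer below the controls for any of the 3, and was above them for Keg1 and Ttc36. The Car14 pair had 88.3, 113.9 and 75.9 in the controls against 107.5, 164 and 68.9, so that on the pair I-PpoI mouse 1 lay within the controls and I-PpoI mouse 3 below them, and the groups overlapped. The Fam151a pair had 18.8, 23.01 and 13.98 against 113.1, 549 and 78.1, which did not overlap, and neither did the groups of the Keg1 pair. How often groups do not overlap on such sums over all genes was not computed. Of the 33 members, 17 have no annotated gene on the opposite strand within 5 kb. Over these 17 the median ratio to the control mean was 0.367, 1.81 and 2.43 in I-PpoI mice 1, 2 and 3. Over the 10 tested members with such a gene nearby but no shared exon it was 0.278, 1.44 and 1.74, and over the 5 that share an exon 0.559, 3.21 and 4.11.

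Some members are known from other work to be higher in male than in female kidneys. Of the list of such genes, Kap, Cyp2e1, Cyp4b1 and Cyp2j5 are members and 5 others were tested. Slc7a13, an amino acid transporter of the last tubule segment, measured 0.838, 5.31 and 1.46 FPKM in control mice against 0, 0 and 0.0701 FPKM in I-PpoI mice. Cyp7b1, an oxysterol hydroxylase, was at 2.06, 2.43 and 2.86 against 0.576, 0 and 0.693 FPKM. Both were listed below every control in each I-PpoI mouse, as were 45.1% of all genes. For their values of 0 in the shallow I-PpoI mice 1 and 2 no upper limit was worked out, so a level within the controls is possible there. Odc1, the ornithine decarboxylase, was at 19.2, 26.2 and 18.6 against 13.001, 19.6 and 24.2 FPKM, and Nudt19 at 8.66, 20.2 and 9.75 against 8.14, 9.35 and 15.7 FPKM. Acsm3 was at 0.740, 1.51 and 1.23 against 11.6, 6.53 and 0 FPKM and has a gene on the opposite strand nearby. Of the 5, 0 passed by limma and 2 lower had an unadjusted p under 0.05, beside 32.2% of all genes.

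Genes known to be higher in female kidneys were highest in I-PpoI mouse 3, the library with most Xist. Slc7a12, a transporter relative of Slc7a13, measured 0, 0.0816 and 0.271 FPKM in control mice against 0, 0 and 14.1 FPKM in I-PpoI mice. Cyp4a14, a fatty acid hydroxylase, was at 0, 0.137 and 0.204 against 0, 4.13 and 20.5 FPKM, and Akr1c18, a progesterone-reducing enzyme, at 0.0513, 0.0589 and 0.244 against 0, 0.989 and 8.27 FPKM. Abcc3 was at 1.69, 2.02 and 1.94 against 0.438, 0.419 and 5.50 FPKM. Slc7a12, Cyp4a14 and Akr1c18 were under 1 FPKM in every control and reached the tested mean only through I-PpoI mice. Their place above the controls was thus nearly fixed by the filter, and the count for this list supports nothing. All 4 tested genes of this list were above every control in I-PpoI mouse 3. So were 25 of 32 members, 14 of 15 proximal tubule transporters and receptors, and 6.17% of all genes. Of the 4 genes, 0 passed by limma and 0 had an unadjusted p under 0.05. The controls and I-PpoI mouse 1 had Y-linked fragments, those of I-PpoI mouse 1 few and perhaps of the opposite strand. Sex and genotype thus cannot be told apart for I-PpoI mice 2 and 3.

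**Figure D4:**
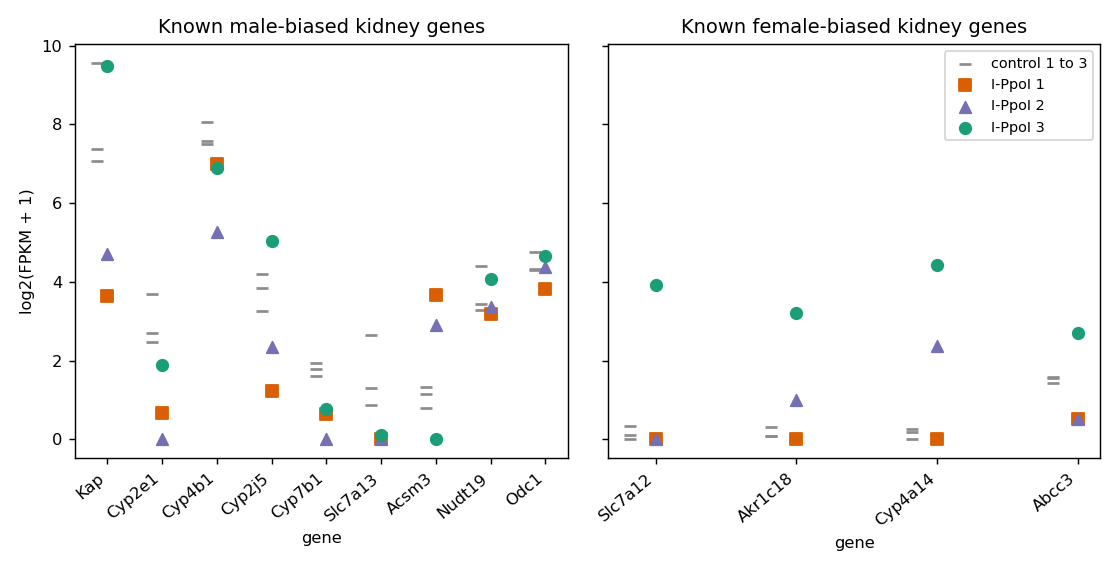
Levels on the log2(FPKM + 1) scale (vertical axis) of tested kidney genes known to be higher in males (left) and in females (right), with 1 mark per library: grey ticks for controls, squares, triangles and circles for I-PpoI mice 1, 2 and 3. Slc7a12, Akr1c18, Cyp4a14 and Abcc3 were highest in I-PpoI mouse 3. In that library Cyp2e1, Cyp4b1, Cyp7b1, Slc7a13 and Acsm3 were below every control, as were 70.7% of all genes. Of the other genes on the left, Cyp2j5 lay above every control there, and Kap, Odc1 and Nudt19 lay within the control range.

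Other genes of the same pathways were read from lists, with members left out. Counts at an unadjusted p under 0.05 stand beside 4.23% of all genes higher and 32.2% lower. Of 7 further gluconeogenesis and fructose genes 0 passed by limma in either direction, 1 was higher and 2 lower at an unadjusted p under 0.05, and the median log2 difference was 0.10. Tkfc, the triose kinase, was at 7.16, 8.14 and 6.70 FPKM in control mice against 37.0, 37.0 and 13.6 FPKM in I-PpoI mice, and the widely expressed G6pc3 at 15.3, 16.9 and 12.2 against 2.80, 5.90 and 11.0 FPKM. Of 3 further tyrosine genes and 5 kynurenine genes tested 0 passed and 0 had an unadjusted p under 0.05, with medians of 0.44 and 0.25. Aadat, a kynurenine aminotransferase, was at 0.938, 0.946 and 1.57 against 0.286, 8.22 and 70.6 FPKM. Of 5 arginine and creatine genes, 6 inositol and glucuronate genes and 3 mercapturate genes 0 passed, 1, 0 and 0 were higher and 0, 2 and 0 lower at an unadjusted p under 0.05, with medians of -0.08, -0.46 and -0.44, all above the median of -0.65 of all genes.

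Of 4 vitamin D genes, 3 oxidase genes and 2 further acyl-CoA synthetase genes 0 passed, 1 vitamin D gene was lower at an unadjusted p under 0.05, with medians of -0.13, -0.41 and 0.85. Of 7 transcription factors other than Hnf4a 0 passed, and 1 was higher at an unadjusted p under 0.05. Their median was 0.26, and 6 were above 0, beside 4251 of 14962 genes. Ppargc1a, a coactivator of mitochondrial genes, measured 1.76, 1.62 and 2.46 FPKM in control mice against 0, 0.724 and 2.36 FPKM in I-PpoI mice.

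Markers of cell types were read beside the members. Proximal tubule transporters and receptors had a median ratio to the control mean of 0.259, 2.01 and 3.78 in I-PpoI mice 1, 2 and 3. In these mice 2, 10 and 14 of 15 lay above every control and 13, 5 and 1 below. Their summed level did not follow this in I-PpoI mouse 1, at 87.6 to 168 FPKM in the controls and 127, 308 and 522 FPKM in the I-PpoI mice. Distal nephron markers did not share that order, with 0 of 9 above every control in any I-PpoI mouse and sums of 215 to 273 against 122, 138 and 165 FPKM, and neither did the 6 podocyte markers, with sums of 669 to 1390.2 against 443, 158 and 344 FPKM. The 12 endothelial markers summed to 2564 to 2978 FPKM in the controls and 1970.0, 663 and 1251 FPKM in the I-PpoI mice, and none was at 0 in any library. Mural and fibroblast markers summed to 688 to 939 against 397, 402 and 435 FPKM. Macrophage markers summed to 19.4, 175 and 207 FPKM in control mice 1, 2 and 3 and to 84.8, 247 and 218 FPKM in I-PpoI mice. The part of other cell types in the members' levels was not tested. Defining markers at 0 were Slc22a8, Slc7a13 and Slc17a3 in I-PpoI mouse 1 and Slc7a13 in I-PpoI mouse 2 for the proximal tubule, Slc26a4 in I-PpoI mouse 2 for the distal nephron, and Fcgr1 in I-PpoI mouse 1 for macrophages.

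The order of levels among the 33 genes was nearly the same in the 3 controls, with Spearman's rho of 0.959 to 0.961 between pairs of them. Between I-PpoI mouse 3 and the controls it was 0.714 to 0.797, and between I-PpoI mice 2 and 3 it was 0.832. Between I-PpoI mice 1 and 3 it was 0.495. These are descriptions across 33 genes, which share a library and its depth and are not replicates.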

How the data were processed

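RNA was measured in 6 libraries, 3 per group, 1 per mouse. Values are FPKM, as the authors named the deposited table, with no pooling of mice per the file headers. DESeq2, mm10 and GRCm38 appear in the submitters' processing notes. What aligner, counter and strand setting were used is not given in the sources used here. The members and all gene lists were chosen with earlier results of these data known.

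Each FPKM was multiplied by exon length (GENCODE M21) and divided by the value of 1 fragment. Of results below 1000, 98.5 to 98.6% per library lay within 0.05 of a whole number. The test was limma on log2(FPKM + 1), over the 14962 genes whose mean reached 1 FPKM, adjusted by Benjamini-Hochberg, threshold 0.05. Folds on this scale understate changes of low genes. The p-values rest on the spread between these libraries, which in the I-PpoI group also holds differences of depth, strand share and sex-linked transcripts. For 0 fragments the limit given is the level of 3 fragments. Named genes are the members, opposite-strand genes sharing their exons and, per list, the lowest and highest difference and up to 4 genes by control mean. Ddx3y, Xist and the markers at 0 were chosen for naming once values were known. Some list genes and 1 further motif that was searched are not reported here. The strand share over each library was added after the values were seen. The limma fit was also tested on simulated data. Alternatives changed pseudocount, filter, scaling, model, gene set, libraries and block. Versions: limma 3.58.1 in R 4.3.3; scipy 1.17.1, pandas 2.3.3, numpy 2.4.6 and matplotlib 3.10.9 in python 3.11.15.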

Additional observations from a re-analysis of the deposited data

How the results depend on the processing

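The alternatives were pseudocounts 0.1 and 0.5, a filter at 5 FPKM or none, median-of-ratios scaling, a common total with mitochondrial genes removed, and limma-voom. Genes with no annotated opposite-strand gene within 5 kb were also fitted alone. For those genes the strand counted in I-PpoI mice 1 and 2 cannot be checked, so that set does not remove the strand difference. Libraries were removed singly, and both shallow I-PpoI libraries together, where the remaining one was taken to vary as the control group does. By limma or limma-voom, 0 genes and 0 members passed in each, except when I-PpoI mouse 3 was removed. Single removals gave 0 to 8438 genes and 0 to 8 members, and without I-PpoI mouse 3 there were 2956 genes higher and 5482 lower. Those 8 members were Haao, Car14 and Fam151a higher and Kap, Cyp2e1, Cyp4b1, Cyp2j5 and Acsm2 lower. The cause was not tested. The members' median was -0.18 (I-PpoI mouse 3 removed) to 0.93 (I-PpoI mouse 1 removed), and 1.33 with I-PpoI mice 1 and 2 removed. It was 1.25 on genes with no annotated opposite-strand gene nearby and 1.39 with limma-voom, the largest. With the replicate block 0 genes and 0 members passed and the median stayed at 0.26. Libraries of the same number deviated with correlations of 0.09, 0.06 and -0.02, so the numbers were not taken as pairs. Of 491 single-member values 30 moved by more than the spread. The sign of Haao, Car14, Fam151a, Cyp2e1 and Cyp4b1 turned under none of these alternatives. Their groups did not overlap, so removing libraries or changing pseudocount, filter or block could not have turned it. Only the scalings and limma-voom could have done so. Among all members the sign turned for 8 with limma-voom and for 11 without I-PpoI mouse 3. In I-PpoI mice 1 and 2, 12 and 4 members rested on under 10 fragments, which limits their values there.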
